A study of Mus musculus with 34 samples.

Results

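The immediate early genes Fos, Fosb, Junb, Ier2, Egr1, Egr2, Egr3, Npas4, Nr4a1 and Arc were followed through the whole brain of the mouse pup. These 10 genes were chosen by name, and each was matched through its RefSeq accession to exactly 1 probe of the array, out of 20145 genes so named. Each of 34 arrays held the RNA of 1 brain fraction, a block of 100 slices of 5 µm, or 500 µm of tissue. All fractions came from male C57BL/6J mice aged 3 days, 1 mouse per cutting plane: 15 coronal fractions of mouse 1, 8 horizontal fractions of mouse 2 and 11 sagittal fractions of mouse 3. The outermost sagittal fractions, 1 and 11, pooled 2 cut fractions each. The labels name no stimulus, no fraction was repeated, and neighbouring fractions of the same brain stood in for replicates in every test, so the p-values measure scatter along 1 brain and not variation between mice.

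Immediate early genes are transcribed within minutes of a stimulus, because the transcription factors that drive them, chiefly CREB and the serum response factor with its partners, already sit in the cell and are switched on by calcium and kinase signals. Most of their products are themselves transcription factors that start a second wave of transcription, and in neurons their RNA serves as a mark of recent activity. Fos, Fosb and Junb encode subunits of the AP-1 factor, which binds DNA as a dimer of a FOS and a JUN protein. Egr1, Egr2 and Egr3 encode zinc finger factors that share a GC-rich site. Npas4 encodes a factor that answers to calcium entry in neurons, Nr4a1 an orphan nuclear receptor, Ier2 a small nuclear protein, and Arc a protein of dendrites and synapses that acts in the removal of AMPA receptors.

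The start-proximal DNA of the members is shown first, because the genes were compared for moving together and CREB and serum response factor sites are the shared inputs known for the class. RefSeq promoter windows (build GRCm38.p6) were searched for 6 of the 10 members: Fos, Fosb, Junb, Egr2, Npas4 and Nr4a1. Egr3, Arc and Ier2 had no window in the promoter table. Egr1 was left out of the search, so nothing is said here of its sites. The 250 bases before the start are given 5′ to 3′ on the strand of the gene, with matches to any motif searched in capitals, for Fos and for 4 members whose profiles differed from that of Fos below.
Fos (chr12:85473640-85473889, plus strand): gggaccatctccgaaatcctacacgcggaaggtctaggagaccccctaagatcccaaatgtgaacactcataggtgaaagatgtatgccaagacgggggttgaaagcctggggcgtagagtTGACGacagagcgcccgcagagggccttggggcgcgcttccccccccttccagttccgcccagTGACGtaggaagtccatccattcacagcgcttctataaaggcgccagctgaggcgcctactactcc
Fosb (chr7:19310046-19310295, minus strand): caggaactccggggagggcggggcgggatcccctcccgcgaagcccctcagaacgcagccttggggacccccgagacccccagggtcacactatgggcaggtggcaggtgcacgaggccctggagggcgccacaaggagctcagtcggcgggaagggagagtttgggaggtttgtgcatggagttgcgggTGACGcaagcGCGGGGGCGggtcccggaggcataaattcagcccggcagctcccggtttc
Egr2 (chr10:67537619-67537868, plus strand): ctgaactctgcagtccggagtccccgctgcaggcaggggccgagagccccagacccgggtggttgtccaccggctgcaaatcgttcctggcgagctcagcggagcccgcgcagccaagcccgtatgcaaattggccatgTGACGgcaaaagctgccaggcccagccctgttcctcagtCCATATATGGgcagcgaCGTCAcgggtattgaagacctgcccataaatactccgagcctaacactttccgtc
Npas4 (chr19:4989972-4990221, minus strand): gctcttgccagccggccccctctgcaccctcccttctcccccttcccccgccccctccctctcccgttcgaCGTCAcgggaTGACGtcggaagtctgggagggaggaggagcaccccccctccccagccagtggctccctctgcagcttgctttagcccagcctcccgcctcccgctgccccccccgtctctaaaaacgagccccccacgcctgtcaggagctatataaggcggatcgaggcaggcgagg
Nr4a1 (chr15:101266596-101266845, plus strand): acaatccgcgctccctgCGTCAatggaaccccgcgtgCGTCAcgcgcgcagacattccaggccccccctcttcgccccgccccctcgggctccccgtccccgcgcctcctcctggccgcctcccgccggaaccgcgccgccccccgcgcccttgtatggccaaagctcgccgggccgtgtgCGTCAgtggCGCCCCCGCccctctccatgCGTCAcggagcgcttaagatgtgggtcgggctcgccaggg
The motifs, searched on both strands, were the full cAMP response element TGACGTCA, its core TGACG, which every full element also contains, the AP-1 site TGANTCA, the EGR site GCGNGGGCG and the CArG box bound by serum response factor. The core TGACG was found in all 6 members searched, against 19.79% of the 27025 genes of the promoter table. Nr4a1 held 4 copies, Fos, Npas4 and Egr2 2 each, and Fosb and Junb 1 each. Egr2 has 5 annotated starts, and the window shown is the first of the 3 that held the core. Of these 6 members the CArG box was found in Egr2 alone (1.62% of genes), in 4 of its 5 windows. The EGR site was found in Fosb and Nr4a1 (5.33% of genes). The full element (1.77% of genes) and the AP-1 site (7.82% of genes) were not found in these windows. A match is a run of letters and not a bound site, and the lack of one says only that these letters are not in this window. The core stood in the windows of both Fos and Npas4, whose coronal profiles below ran in opposite directions.

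All values are log2 normalized signals, the log2 of the processed spot signal less the log2 75th percentile of the array. On this scale 0 is the 75th percentile of the array and 1 unit is a doubling. Fos, Fosb, Ier2, Egr1, Npas4, Nr4a1 and Arc were well above background in all 34 fractions, and Egr2 in all but coronal fraction 1. Junb was well above background in 7 of 15 coronal, 7 of 8 horizontal and 10 of 11 sagittal fractions. Egr3 was well above background in sagittal fraction 3 alone, at -4.41, and did not pass the filter of detection in at least 1 fraction of each series, so that 9 of the 10 members were tested among 34186 probes. Levels of different genes are not set against each other, since each has its own probe. Fos is the one member spotted 10 times on each array, and its spots had a standard deviation (SD) between 0.06 and 0.40. For the other members, the spread between spots of repeated probes at the same signal was taken as the measuring error, and it ran from 0.09 at the level of Nr4a1 to 0.57 at the lowest levels.

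The labels number the fractions without naming the end at which the count starts, and marker genes were used to place them. In the coronal series the mean of 9 cerebellar genes was highest in fraction 1, of 8 hindbrain genes in fraction 2, of 10 striatal genes in fraction 11, of 12 cortical and hippocampal genes in fraction 13 and of 8 olfactory bulb genes in fraction 15. In the horizontal series the cortical and hippocampal mean was highest in fraction 2 and the hypothalamic mean in fraction 8. In the sagittal series the cerebellar, hindbrain and thalamic means were highest in fraction 6, the midbrain and olfactory bulb means in fraction 5 and the hypothalamic mean in fraction 8. Fraction 6, the middle of the 11, was assumed as the midline in the sagittal contrast. Detection ranged from 48.5% to 61.4% of probes per array, and no spot was saturated.

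Along the coronal series the members did not share 1 profile. Egr1, Fosb, Junb, Npas4 and Nr4a1 were higher in fractions 10 to 15 than in fractions 1 to 6, while Fos was lower there. The plot of the members over the coronal fractions shows these courses.

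**Figure D1:**
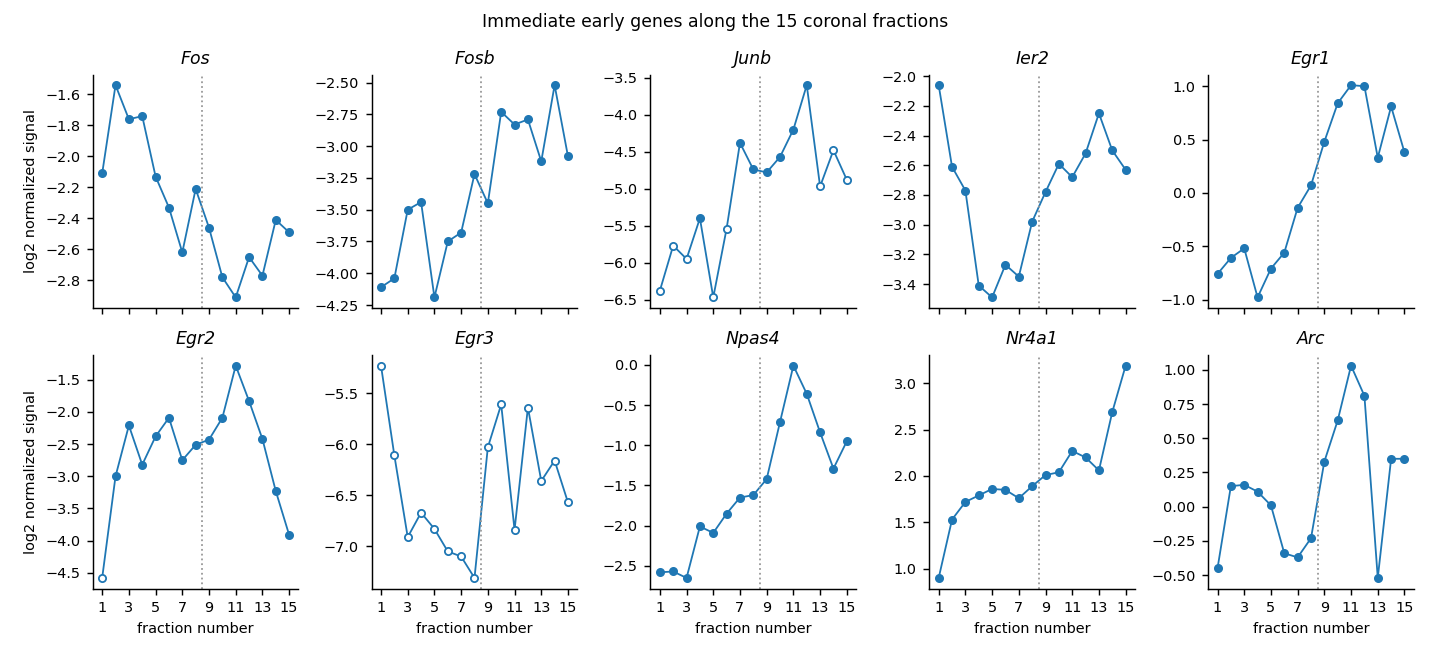
Log2 normalized signal of each member (y axis, own scale in each panel) against the fraction number of the 15 coronal fractions. Open points were not well above background, and the dotted line marks the change of array slide between fractions 8 and 9. Fos falls from -1.54 in fraction 2 to -2.91 in fraction 11, while Egr1 and Npas4 are highest in fraction 11 and Nr4a1 climbs to 3.19 in fraction 15.

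Of the AP-1 genes, Fos ran from -2.91 in fraction 11 through a median of -2.41 to -1.54 in fraction 2. Its level was -1.94 ± 0.30 (SD, n = 6) in fractions 1 to 6 and -2.67 ± 0.19 (n = 6) in fractions 10 to 15. The groups did not overlap, and between them fraction 7 was as low as -2.62. The share of all probes whose groups also did not overlap was not counted in any series, so the lack of overlap is description only. Fosb ran the other way, from -4.19 in fraction 5 through a median of -3.44 to -2.52 in fraction 14. Its mean was -3.84 ± 0.32 in the first group and -2.85 ± 0.23 in the second, again without overlap. Junb lay between -6.47 in fraction 5 and -3.60 in fraction 12, with a median of -4.88. It was well above background in 1 of 6 fractions of the first group and in 3 of 6 of the second, so its difference rests largely on values near background.

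Ier2 had a U-shaped course with a median of -2.68. It was highest in fraction 1 (-2.06), fell to -3.49 in fraction 5 and came back to -2.25 in fraction 13. A contrast of the ends of the series misses such a course.

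Among the zinc finger genes, Egr1 ran from -0.98 in fraction 4 through a median of 0.07 to 1.01 in fraction 11. Its means were -0.69 ± 0.17 in fractions 1 to 6 and 0.73 ± 0.30 in fractions 10 to 15. No fraction of the first group reached the lowest of the second. Egr2 was low at both ends, with -4.58 in fraction 1 (not well above background) and -3.91 in fraction 15, around a median of -2.43 and a peak of -1.28 in fraction 11. Its groups overlapped widely. Egr3 was not well above background in any coronal fraction.

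Npas4 rose from -2.65 in fraction 3 through a median of -1.62 to -0.01 in fraction 11. Its means were -2.29 ± 0.35 and -0.69 ± 0.45, and the groups did not overlap. Nr4a1 rose from 0.90 in fraction 1 through a median of 1.89 to 3.19 in fraction 15, the fraction where the olfactory bulb genes peaked. Arc was between -0.52 in fraction 13 and 1.03 in fraction 11, with a median of 0.15. Its lowest and highest values thus lay within the same group of fractions, which overlapped the other group.

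A moderated F test of a smooth curve over the coronal fractions (limma, Benjamini-Hochberg over all 34186 probes) called 8 of the 9 members tested, all but Arc (adjusted p = 0.2685), where 60.4% of all probes were called. The F of the members had a median of 13.1, against 5.74 over all probes. In the contrast of fractions 10 to 15 with fractions 1 to 6, 6 of the 9 members were called, against 32.3% of all probes. Of these, 5 were higher (21.7% of all probes) and 1 was lower (10.6%). The differences that passed were 1.60 ± 0.20 (standard error, SE) for Npas4, 1.47 ± 0.24 for Junb, 1.42 ± 0.15 for Egr1, 1.00 ± 0.15 for Fosb and 0.80 ± 0.21 for Nr4a1, which is 3.03-fold for Npas4, 2.67-fold for Egr1, 2.00-fold for Fosb and 1.74-fold for Nr4a1. No fold is given for Junb, which was not well above background in 5 of the 6 fractions of the first group. With each such value raised to the lowest detected signal of its array, its means were -5.15 and -4.26. Fos fell by 0.73 on the log2 scale (SE 0.14, 1.66-fold, adjusted p = 0.001491). Arc differed by 0.50 (95% confidence interval 0.01 to 0.99, adjusted p = 0.1076), Ier2 by 0.41 (-0.05 to 0.87) and Egr2 by 0.39 (-0.60 to 1.37), and none of these passed. With normexp background correction the calls held at smaller differences for the dimmer genes, -0.26 for Fos, 0.59 for Fosb and 0.61 for Junb. The 6 members called kept their calls with any 1 of the 15 fractions left out. The difference of Egr2 was 0.04 without fraction 1, its one undetected value, 0.15 without fraction 11, 0.26 without fraction 12 and 0.68 without fraction 15. Ier2 passed without fraction 1 (0.58, adjusted p = 0.01654) and Arc without fraction 13 (0.69, adjusted p = 0.01081). A lower signal in a fraction cannot be told apart as fewer cells expressing the gene or less RNA in each.

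Fractions 1 to 8 were hybridised on 1 slide and 9 to 11 and 13 to 15 on another, so slide and position cannot be told apart in that contrast. Across the change of slide from fraction 8 to 9 the step was 0.41 for Egr1, 0.20 for Npas4, 0.12 for Nr4a1, -0.25 for Fos and -0.23 for Fosb. The next step, within the second slide, was 0.36 for Egr1, 0.72 for Npas4, 0.03 for Nr4a1, -0.32 for Fos and 0.72 for Fosb. Within the first slide the slope per fraction was 0.16 ± 0.02 (SE) for Npas4 (adjusted p = 0.005796), 0.10 ± 0.04 for Egr1 (adjusted p = 0.1002) and -0.10 ± 0.04 for Fos (adjusted p = 0.1265), where 19.0% of all probes were called. It was 0.22 ± 0.07 for Junb (0.07106), 0.10 ± 0.03 for Nr4a1 (0.07355) and 0.08 ± 0.04 for Fosb (0.2509), so that 1 of the 6 members called in the contrast passed within this slide. Within the second slide no member passed (6.14% of all probes). The slope of Nr4a1 there was 0.16 ± 0.05 (adjusted p = 0.1046), and those of Egr1 and Npas4 were -0.04 ± 0.05 and -0.02 ± 0.09. With the slide as a random block the 6 members stayed past the threshold, and Arc (0.54, adjusted p = 0.02271) and Ier2 (0.44, adjusted p = 0.04139) joined them. The share of all probes called rose as well, from 32.3% to 45.5%.

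Along the horizontal series Fos rose together with Arc and Egr2, unlike in the coronal series, and the values of Ier2 ran the other way. The plot over the horizontal and sagittal fractions shows both series.

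**Figure D2:**
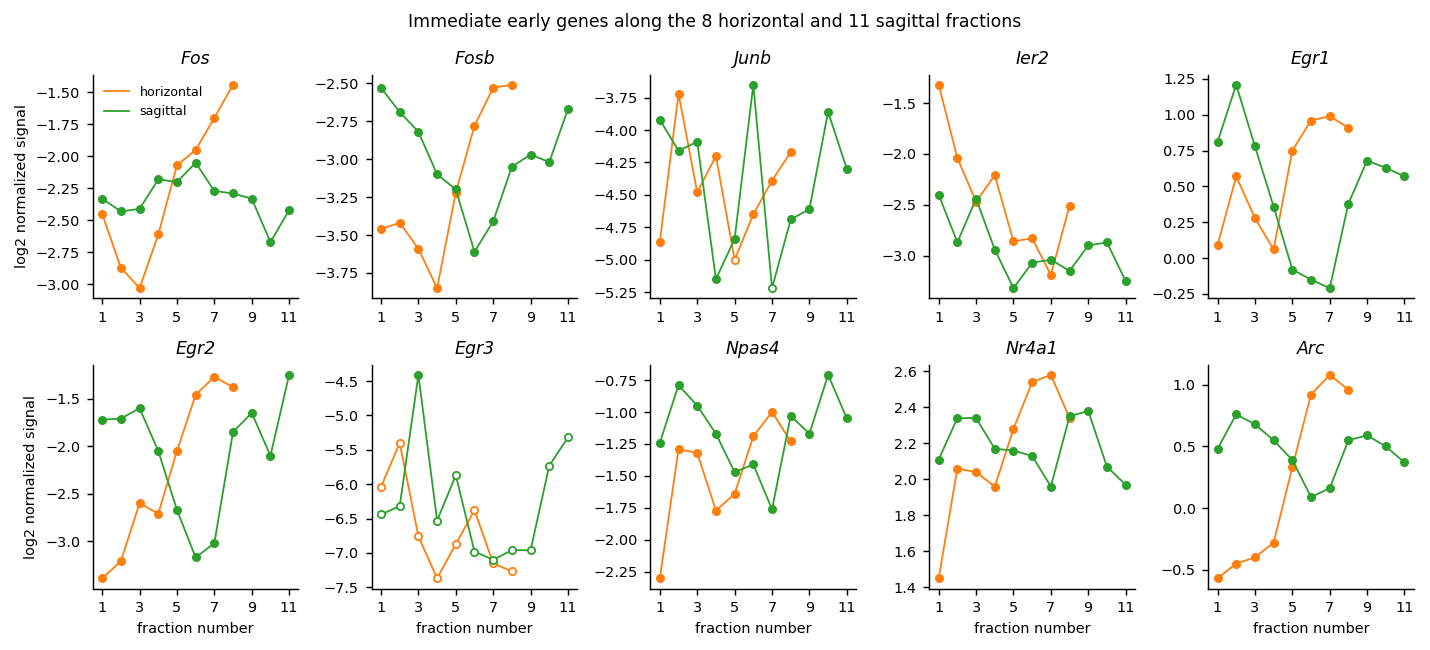
Log2 normalized signal of each member (y axis, own scale in each panel) against the fraction number in the 8 horizontal fractions (orange) and the 11 sagittal fractions (green). Open points were not well above background. Arc and Egr2 climb along the horizontal series to peaks of 1.08 and -1.27 in fraction 7, Ier2 starts at its highest value, -1.32, and Egr1, Egr2 and Fosb have a trough around sagittal fractions 6 and 7.

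Fos lay between -3.03 in fraction 3 and -1.44 in fraction 8, with a median of -2.26. Its mean was -2.79 ± 0.30 (n = 3) in fractions 1 to 3 and -1.70 ± 0.25 (n = 3) in fractions 6 to 8, without overlap. Arc rose from -0.57 in fraction 1 through a median of 0.02 to 1.08 in fraction 7. Its first 4 fractions were all below 0 and its last 3 all at 0.92 or more. Egr2 rose from -3.39 in fraction 1 through a median of -2.32 to -1.27 in fraction 7, with means of -3.06 ± 0.42 and -1.37 ± 0.10. Fosb lay between -3.85 in fraction 4 and -2.51 in fraction 8, with a median of -3.32. Ier2 was highest in fraction 1 (-1.32) and lowest in fraction 7 (-3.19), with a median of -2.49.

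Egr1 (0.06 in fraction 4 to 0.99 in fraction 7, median 0.66), Npas4 (-2.30 in fraction 1 to -0.997 in fraction 7, median -1.30) and Nr4a1 (1.45 in fraction 1 to 2.58 in fraction 7, median 2.17) had a second, smaller high in fraction 2. Fraction 7 thus held the highest value of Egr1, Egr2, Npas4, Nr4a1 and Arc. Junb lay between -4.998 in fraction 5 and -3.72 in fraction 2 (median -4.44) with overlapping groups.

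The curve over the horizontal fractions was called for 3 of the 9 members, Arc (adjusted p = 0.02954), Egr2 (0.0363) and Fos (0.04232), where 1.72% of all probes were called. At an unadjusted p under 0.05 there were 6, and the share of all probes at that threshold was not counted. Without fraction 1 the adjusted test called 1 member, and with any other fraction left out it called 0. In the contrast of fractions 6 to 8 with 1 to 3, 2 members passed, against 0.617% of all probes. Both were higher (0.386% of all probes, with 0.231% lower): Egr2 by 1.69 ± 0.25 (SE, 3.23-fold, adjusted p = 0.04868) and Arc by 1.46 ± 0.17 (2.75-fold, adjusted p = 0.04453). Fos was 1.09 ± 0.22 higher (adjusted p = 0.08279), Fosb 0.88 ± 0.18 (0.08505), Egr1 0.64 ± 0.21 (0.192) and Ier2 -0.90 ± 0.33 (0.243). These calls sit close to the threshold: with 1 fraction left out, Arc stayed past it in 3 of 8 fits and Egr2 in 1 of 8, with differences of 1.41 to 1.495 and 1.53 to 1.93. Leaving out fraction 1, 2, 6, 7 or 8 ended the call of both. With normexp background correction both passed, Arc at 1.31 and Egr2 at 0.83, and Fos and Fosb stood at 0.61 and 0.35.

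In the sagittal series Fosb, Egr1 and Egr2 were low near the middle and higher towards both sides, while Fos had its highest value there. Fosb was highest in fraction 1 (-2.53) and lowest in fraction 6 (-3.61), with a median of -3.02. Egr1 lay between -0.21 in fraction 7 and 1.21 in fraction 2, with a median of 0.57. Egr2 lay between -3.17 in fraction 6 and -1.25 in fraction 11, with a median of -1.85. In these 3 genes, as in Npas4 and Fos, the middle fractions 5 to 7 did not overlap with the outer fractions 1, 2, 10 and 11. How common this is among all probes was not counted.

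Npas4 (-1.76 in fraction 7 to -0.71 in fraction 10, median -1.17) and Arc (0.09 in fraction 6 to 0.76 in fraction 2, median 0.50) had shallower troughs. Fos was at -2.05 in fraction 6 and had its lowest value in fraction 10 (-2.67), with a median of -2.33 and a range of 0.62. Nr4a1 varied by 0.42 over the whole series, between 1.96 and 2.38 around a median of 2.16. Ier2 lay between -3.32 and -2.40 (median -2.94) and Junb between -5.22 and -3.65 (median -4.30). The smooth curve held a share of 0.56 of the variance of Ier2 and 0.24 of Junb, against a median of 0.49 over all probes. It was called for neither.

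The curve over the sagittal fractions was called for 1 of the 9 members, Fosb (adjusted p = 0.02248), where 15.7% of all probes were called. Without fraction 7, or with the slide as a random block (3.54% of all probes called), the curve was called for 0 members. In the slope on the distance from fraction 6, 4 members passed, against 28.3% of all probes. They were 3 of higher signal towards the sides (18.3% of all probes) and 1 of lower (9.97%). The slopes per fraction were 0.31 ± 0.06 (SE) for Egr2, 0.22 ± 0.05 for Egr1, 0.18 ± 0.02 for Fosb and -0.07 ± 0.02 for Fos. The first 3 calls held with any 1 fraction left out and within the slide of fractions 2 to 9 alone. The call of Fos (adjusted p = 0.03794) was lost without fraction 2, 3, 4, 5, 6, 7, 8 or 11 (slopes -0.08 to -0.06), while its direction stayed, and with the slide as a random block (-0.07, adjusted p = 0.0734). It was also lost with array median scaling (-0.04, adjusted p = 0.3042), quantile normalization (-0.06, adjusted p = 0.1184), limma-trend (adjusted p = 0.05906), no detection filter (0.09064) and without slide 5 (0.08075), and with normexp background correction the slope was -5.96e-05. The sagittal slope of Fos thus depends on the scaling and background correction. Junb (0.11 ± 0.09) passed without fraction 6 (0.28, adjusted p = 0.00949), the fraction of its highest value, and Npas4 (0.12 ± 0.04, adjusted p = 0.06295) passed without fraction 1 (0.16, adjusted p = 0.03045). Npas4 also passed with array median scaling (adjusted p = 0.01117, 36.2% of all probes called), quantile normalization (0.04948, 24.1%) and limma-trend (0.04408, 30.4%). With probes detected in every fraction Npas4 passed too (0.04473, 35.0%). Arc passed with array median scaling (0.10, adjusted p = 0.03466). With normexp background correction Junb (0.11, adjusted p = 0.0164), Npas4 (0.09, 0.03559) and Ier2 (0.07, 0.03186) passed, where 44.3% of all probes were called. Ier2 also passed without slide 5 (0.15, adjusted p = 0.04856), where 21.6% of all probes were called. The sides were also set against each other. Fraction 10 less fraction 2 was -0.58 for Egr1 and -0.32 for Fosb, and the other mirror pairs of both genes differed by 0.24 or less. Ier2 had -0.85 for fraction 11 less fraction 1. The pairs 10 and 2 and 11 and 1 compare arrays of different slides, while the other pairs lie on 1 slide, and the part of the slide was not tested.

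**Figure D3:**
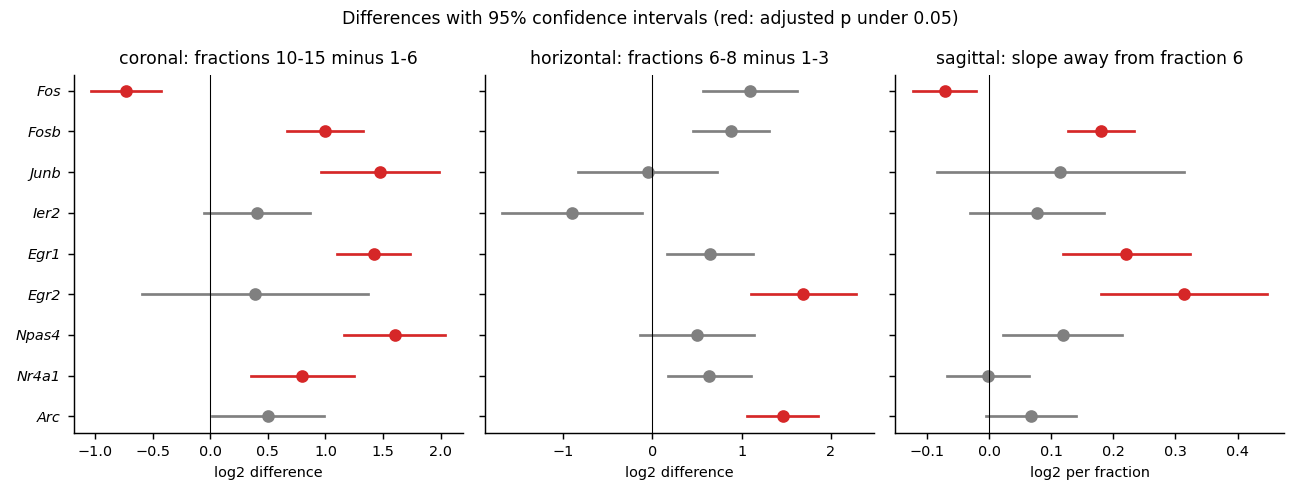
Estimate (point) and 95% confidence interval (line) of each tested member in the 3 contrasts: log2 difference for the coronal and horizontal series, log2 per fraction for the sagittal slope. Red marks an adjusted p under 0.05. Fos is the lone member below 0 in red, in the coronal and sagittal panels, the latter call being lost with other scalings, and Arc and Egr2 are the members in red in the horizontal panel.

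Whether Fos differed from the other members was tested on the differences themselves, by subtracting its values from every probe. In the coronal contrast all 8 other members tested were higher relative to Fos, from 1.12 (Egr2, adjusted p = 0.04862) to 2.33 (Npas4, adjusted p = 2.871e-05). This is a low bar, since 73.7% of all probes were called against Fos. In the sagittal slope 6 of the 8 passed (46.2% of all probes), with Egr2 at 0.39 and Egr1 at 0.29 per fraction, while Junb (0.19, interval -0.01 to 0.39) and Nr4a1 (0.07, interval -0.01 to 0.15) did not. In the horizontal contrast the member subtracted was Ier2, chosen, like Fos, after the data were seen. Relative to it Egr2 was higher by 2.59, Arc by 2.36 and Fos by 1.99 (adjusted p = 0.003941), where 7.24% of all probes were called. Every member had the same SE in this fit, 0.51, a spread pooled over all probes. These p-values therefore do not measure the scatter of each gene. Junb (0.85, interval -0.15 to 1.85) and Npas4 (1.40, interval 0.40 to 2.40, adjusted p = 0.06707) did not pass.

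Pearson's r between members was computed over the 34 fractions after the mean of each series was removed, as a description, since fractions of 1 brain share a course and an array. Over the 45 pairs of the 10 members r had a median of 0.27 and ran from -0.52 to 0.86. Egr1 with Fosb and Egr1 with Npas4 were the highest pairs (both 0.86), and Fos with Npas4 was the lowest. Egr1, Npas4, Fosb, Arc, Egr2 and Nr4a1, grouped after their values were seen, were above 0 in all 15 of their pairs in each series alone. Their median r was 0.60 in the coronal, 0.87 in the horizontal and 0.72 in the sagittal series. Fos had an r below 0 with all 9 other members in the coronal series (median -0.47, lowest -0.88 with Npas4). In the horizontal series its r was 0.91 with Arc, 0.89 with Fosb and 0.84 with Egr2, and it turned to -0.51, -0.59 and -0.57 with the same genes in the sagittal series. Ier2 was at -0.95 with Nr4a1 and -0.86 with Egr2 in the horizontal series.

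To separate the course along an axis from change that single arrays share, the curve over position was removed from each member in each series. The curves held 85.5% of the variance within series of Egr1, 84.9% of Fos, 83.5% of Nr4a1, 82.9% of Ier2 and 80.0% of Fosb and of Npas4. They held less of Egr2 (68.3%), Arc (63.2%), Junb (61.0%) and Egr3 (59.4%), and the median over all probes was 60.7%. What was left was scatter of single fractions about the curve. In the 15 pairs of Egr1, Npas4, Fosb, Arc, Egr2 and Nr4a1 the r of this scatter had a median of 0.49 and a range from 0.26 to 0.82. These genes were grouped after their values, scatter included, were seen, so a positive r is partly built in. The r of other pairs of probes was not computed. The highest pairs were Arc with Nr4a1 (0.82) and Egr1 with Nr4a1 (0.78). Over the 9 pairs with Fos the median was 0.08. Over all 45 pairs it was 0.17, with a range from -0.46 to 0.82.

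**Figure D4:**
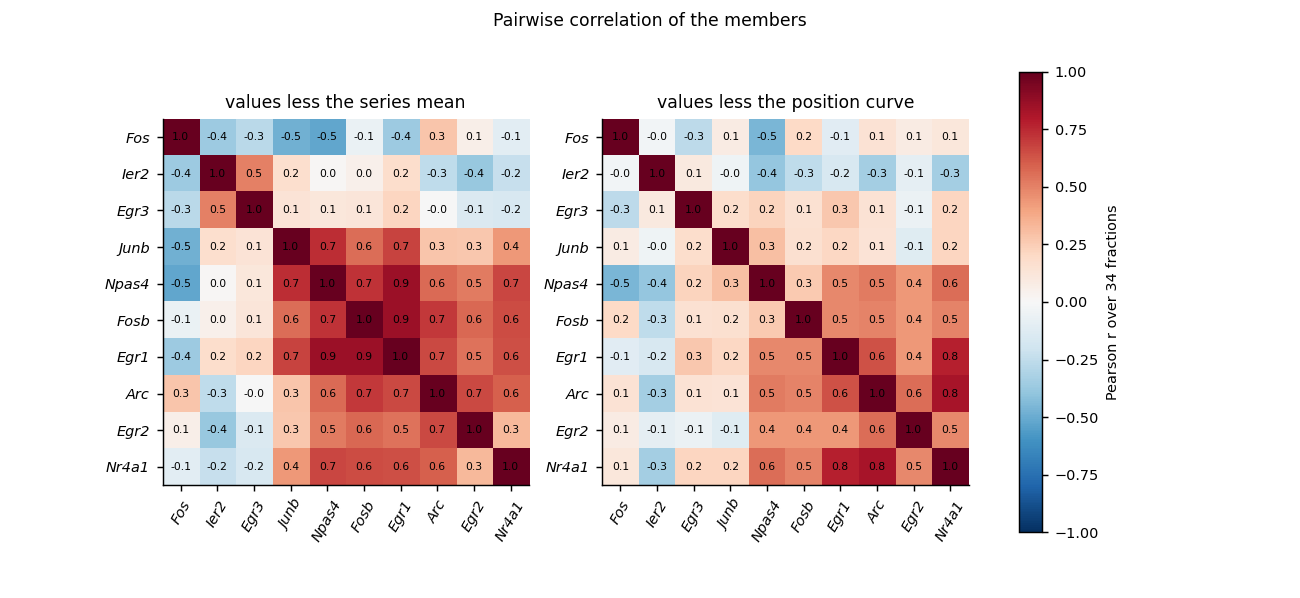
Pearson's r of each pair of members over the 34 fractions (colour and printed value), for values less the series mean (left) and for values less the curve over position (right). The block from Npas4 to Nr4a1, grouped after its values were seen, is positive on both sides, while Fos and Ier2 hold most of the negative cells.

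The scatter that a member shared with the mean of the other 9 took up 16.3% of the variance within series of Arc, 9.3% of Nr4a1, 6.6% of Egr1, 5.4% of Fosb and 5.2% of Npas4. It took up 0.1% of Fos and 1.0% of Ier2. For the residuals of all members taken as 1 mean, the median share over all probes was 1.0%. With that shared scatter of the other members as a covariate, the coronal and sagittal counts were 7 and 5 in place of 6 and 4. The share of all probes called was not counted for these fits. Egr2 (adjusted p = 0.07971) and Arc (adjusted p = 0.06938) no longer passed in the horizontal contrast, at differences of 1.69 and 1.46. The covariate had its curve over position removed beforehand, so these differences could hardly move. No conclusion is drawn from their staying in place.

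Single fractions were then set against both neighbours. In 7 of the 28 fractions with a neighbour on either side, at least 8 of the 10 members lay on the same side. How often other sets of 10 genes do so was not counted. Coronal fraction 13 was the lowest, with a mean deviation of -0.38 and 8 members below, led by Arc (-1.10), Junb (-0.93) and Egr1 (-0.58), where 58.6% of all probes lay above their neighbours. Coronal fraction 12, its neighbour, had 9 members above (mean 0.33). The deviations of neighbouring fractions, as here and in sagittal fractions 7 and 8, are tied, since each enters the mean set against the other. Arc lay 0.55 above its neighbours in coronal fraction 12, though its value there (0.81) was below that in fraction 11 (1.03). The 7 fractions are thus not independent. Sagittal fraction 7 had 9 below (-0.31), with Npas4 at -0.54 and Egr2 at -0.51, and sagittal fraction 8 had 9 above (0.17). In these the split of all probes lay between 52.9% and 58.6% above. Horizontal fraction 6 had 9 above (0.17) and horizontal fraction 4 had 8 below (-0.16), with Fosb and Egr1 at -0.45 and -0.46. Of all probes, 54.1% lay above in horizontal fraction 6 and 43.9% in horizontal fraction 4, so these leaned with the members.

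Sagittal fraction 3 had the highest mean (0.34, 8 above, with 53.7% of all probes above), but Egr3 alone stood at 2.02 there, and without Egr3 and Junb the mean was 0.10. Without these genes, which were at or near background, coronal fraction 13 was at -0.30 and sagittal fraction 7 at -0.24. In these 7 fractions Fos lay within 0.24 of its neighbours. Coronal fraction 12 and horizontal fractions 3 and 4 lay on another slide than the rest of their series, and the part of the slide in these deviations was not tested. Over the 34 fractions the mean residual of the members had an r of -0.08 with the 75th percentile of the array and 0.15 with the share of probes detected. Fos had 0.62 with the former and Nr4a1 0.39 with the latter, and their part in the values was not tested.

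**Figure D5:**
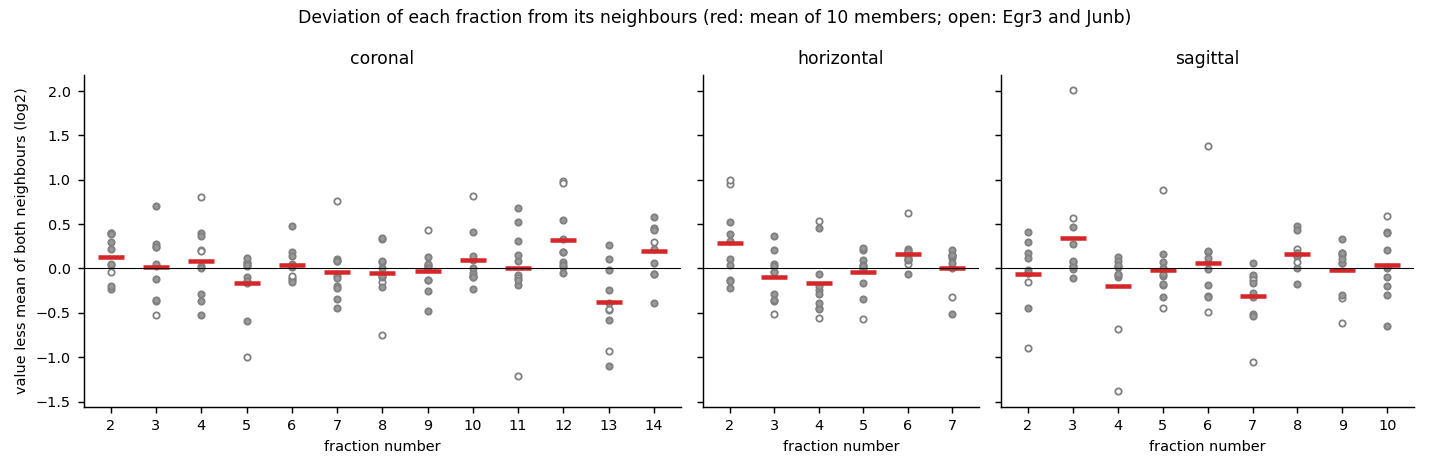
Deviation of each fraction from the mean of its neighbours (log2, y axis) against fraction number, for the 28 fractions with a neighbour on either side. Each point is 1 member (open for Egr3 and Junb, which were at or near background) and the red bar is the mean of the 10 members. The lowest bar is coronal fraction 13 (-0.38) and the highest sagittal fraction 3 (0.34), where 1 open point stands at 2.02.

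The members were set beside marker lists of regions and cell types by r over the 34 fractions, again as a description. Egr1, Npas4 and Junb had r of 0.64, 0.72 and 0.65 with the 12 cortical and hippocampal genes, and -0.60, -0.60 and -0.64 with the 8 hindbrain genes. These values join series of opposite sign, since in the horizontal series alone the cortical list stood at -0.76 with Egr1 and -0.45 with Npas4. Arc and Egr2 were higher with the 10 striatal genes (0.76 and 0.72) than with the cortical list (0.07 and 0.31). The striatal r of Arc was 0.70 in the coronal, 0.97 in the horizontal and 0.77 in the sagittal series. That of Egr2 was 0.77, 0.95 and 0.33 in the same order. In the sagittal series alone Egr2 was higher with the cortical list (0.76) than with the striatal genes. Nr4a1 had 0.71 with the 8 olfactory bulb genes, but -0.14 in the sagittal series alone. Fos stood at -0.72 with the cortical list, and below -0.7 in each series alone. It stood at 0.73 with the hindbrain list, and at 0.78 with both the 8 astrocyte genes and the 9 genes of the oligodendrocyte lineage. In the sagittal series alone these were lower, at 0.50 for the hindbrain, 0.38 for the astrocyte and 0.47 for the oligodendrocyte list. Ier2 was highest with the 9 endothelial genes (0.65) and the 7 blood cell genes (0.49) and was at -0.47 with the 10 neuronal genes. Its r with the blood cell list was 0.04 in the horizontal series, and that with the neuronal list -0.08 in the sagittal series. The mean of the neuronal genes itself varied from -0.69 in coronal fraction 1 to 0.24 in fraction 8, and the endothelial mean from -0.27 to 0.35 in that series. With 9 heat shock genes Fos had the highest r of the members (0.45), and with 11 housekeeping genes the members ran from -0.20 for Fos to 0.36 for Ier2. The part of cell makeup in the members' courses was not tested.

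The genes most like the members were sought among all named genes. Closest to the mean of the 10 members were Gng7 (r = 0.89), Zfp710 (0.89), Ppp1r1b, which encodes the dopamine-regulated phosphoprotein DARPP-32 (0.88), Cracdl (0.88), Bcl11b (0.88), Crocc (0.87), Arpp21 (0.87), Egr4 (0.87), Rin1 (0.86) and Actn2 (0.85). The coronal peak of 9 of these 10 was in fraction 11 or 12. For single members the closest were Gng7 for Egr1 (0.94), Bcl11b for Npas4 (0.93), Zfp710 for Fosb (0.89), Wnt7a for Nr4a1 (0.87), Gm1604b for Arc (0.86), Pgam2 for Egr2 (0.84) and Wipf3 for Junb (0.79). The r of Wnt7a with Nr4a1 was 0.01 in the sagittal series alone. Fos was most like Tacc1 (0.88), Cd81 (0.85) and Alpl (0.84), and Ier2 most like Nes, the neural progenitor filament gene nestin (0.84).

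Of 48 other early response genes, 43 were tested. In the coronal contrast 18 were called (41.9%, against 32.3% of all probes), 11 higher and 7 lower, with a median difference of 0.04 against 0.10 over all probes and 0.80 over the members. The largest were Egr4 (3.21 ± 0.52), a further EGR factor, Inhba (2.94 ± 0.31), which encodes an activin subunit, and the AP-1 gene Fosl2 (1.56 ± 0.37). Bdnf, a neurotrophin gene, was lower (-1.28 ± 0.27), as were Zfp36l1 (-0.94 ± 0.21), whose product destabilises mRNAs, and Vgf (-0.86 ± 0.21), a neuropeptide precursor gene. In the sagittal slope 21 were called (48.8%, against 28.3% of all probes), 14 higher and 7 lower, led by Nr4a2 (0.62 ± 0.10 per fraction), Inhba (0.35 ± 0.06) and Egr4 (0.35 ± 0.07), with Vgf (-0.27 ± 0.04), Nptx2 (-0.24 ± 0.04) and Ier5 (-0.16 ± 0.05) lowest. In the horizontal contrast limma called 0 of the 43, against 0.617% of all probes. There were 13 at an unadjusted p under 0.05, and the share of all probes at that threshold was not counted. Of 25 genes for upstream regulators of the response, 23 were tested, and 10 were called higher and 1 lower in the coronal contrast, 0 and 1 in the horizontal contrast, and 13 and 1 in the sagittal slope. Together these are 47.8%, 4.35% and 60.9% of the regulators, against 32.3%, 0.617% and 28.3% of all probes.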

How the data were processed

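The authors extracted total RNA from each fraction, labelled it with Cy3 and hybridised it to single-colour Agilent arrays (SurePrint G3 Mouse). They deposited the scanner output of Agilent Feature Extraction 10.10.1.1, whose spot intensity is a background-subtracted signal not scaled between arrays, and a table of log2 values. The log2 values the authors deposited are those signals scaled to the array's 75th percentile. After 1 shift for each array, 99.9% of them matched the signals within a tolerance of 0.02, and no shift was more than 0.012 from the percentile.

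Starting from the deposited intensity, the mean over a probe's spots was taken, and its log2 was set against the log2 75th percentile of the array, which sets aside any change common to most probes. A probe counted as detected where the scanner software marked the majority of its spots well above background. The filter asked for detection in 1 or more fractions of every series, which 34186 of 55681 probes passed. Probes were named through accessions and a RefSeq table (GRCm38.p6), and 26582 had 1 symbol. The scanner files give the build mm9, and no coordinates were joined between the builds.

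Each series was fitted alone in limma (lmFit and eBayes, version 3.58.1, under R 4.3.3): a natural spline of 3 terms over fraction number, and 1 contrast or slope. The p-values were adjusted by Benjamini-Hochberg over all probes, with a threshold of 0.05. Simulated data of 34186 probes held 200 planted straight ramps of log2 3 or of log2 1 from end to end. The coronal contrast found 191 and 78 of them, and the horizontal contrast 106 and 0. A ramp gives a smaller difference between groups of fractions than between its ends. The simulated scatter was independent between fractions, unlike that of neighbouring fractions of 1 brain. These shares are therefore not the power for differences of that size in the real data. Arrays give no read depth, and their number limits the precision. Slides were read from the array barcodes. Descriptions used Python 3.11.15, numpy 2.4.6 and pandas 2.3.3. Alternatives were other scalings, background corrections and filters, blocks for slide, the other members as covariates and each fraction left out. The within-slide fits, the differences between members and the deviation without Egr3 and Junb were chosen after seeing the data. The members, the gene lists and the rule for named genes (all members, the 3 called early response genes of largest difference each way per contrast, and the genes of highest r with the members) were chosen with earlier results of these data known.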

Additional observations from a re-analysis of the deposited data

How the results depend on the processing

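No paired analysis was possible because a fraction number marks a position on a different axis in a different mouse in each series. Of the 9 tested members, 8 were called over the coronal fractions, 3 over the horizontal and 1 over the sagittal, and 6, 2 and 4 in the coronal contrast, the horizontal contrast and the sagittal slope. Array median scaling, quantile normalization, the authors' log2 values and limma-trend moved none of these 6 counts by more than 1.5 times, but array median scaling, quantile normalization and limma-trend each ended the sagittal call of Fos (adjusted p = 0.3042, 0.1184 and 0.05906). The settings that ended it each added a sagittal call of Npas4 (adjusted p = 0.01117, 0.04948 and 0.04408). Array median scaling also added a sagittal call of Arc (adjusted p = 0.03466). With normexp background correction the horizontal and sagittal curves called 6 and 2 members (7.53% and 21.0% of all probes, against 1.72% and 15.7% in the main fits). The differences of dimmer genes shrank by over 1.5 times. Fos was at -0.26, Fosb at 0.59 and Junb at 0.61 in the coronal contrast and Egr2 at 0.83 in the horizontal contrast. In the sagittal slope Egr2 was at 0.20 and Fos at -5.96e-05 (call lost). With no detection filter the horizontal and sagittal curves called 0 and 0 (0.00718% and 4.27% of all probes), and the horizontal contrast 0 (0.0%). With probes detected in every fraction the horizontal contrast called 4 (2.22% of all probes, against 0.617% in the main fit). Without slide 5 the horizontal and sagittal curves called 0 and 3 (0.0% and 8.7% of all probes). With the slide as a random block the sagittal curve called 0 (3.54%), and with a spline of 2 terms it called 2 (25.4%). For the fits with a covariate the share of all probes called was not counted. With the other members' mean residual as a covariate the horizontal contrast called 0. With the other members' mean as a covariate, which also takes up the shared course, the coronal, horizontal and sagittal curves called 5, 0 and 0 members and the contrasts 0, 0 and 1. That covariate also reversed Egr2 (-0.56) and Arc (-0.86) in the coronal contrast, Junb (0.0335), Egr1 (-0.32) and Ier2 (0.25) in the horizontal contrast and Arc (-0.0105) in the sagittal slope. The sagittal slope of Nr4a1, at -0.001 and not called, was 0.0326 with array median scaling, 0.035 without slide 5, 0.0208 with the slide as a random block and 0.0856 within slide 4 alone. The cause of these changes was not tested. The mean deviation of sagittal fraction 3 fell from 0.34 to 0.10 without Egr3 and Junb. With each fraction left out in turn, the coronal, horizontal and sagittal curves called 7 to 8, 0 to 1 and 0 to 1 members, and the contrasts 6 to 7, 0 to 2 and 3 to 5. The difference of Junb in the horizontal contrast then ran from -0.30 to 0.27 and the slope of Nr4a1 from -0.0182 to 0.0218. The alternative with every probe of each member could not add anything, since each had 1 probe.

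Each course is that of 1 mouse, neighbouring fractions are not independent, and slide and position overlap in the coronal contrast. Junb and Egr3 lay at or near background, where repeated spots differ by an SD of about 0.5 or more.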
